A study of Mus musculus with 6 samples.

Results

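The 10 genes described here encode enzymes that take tryptophan apart in the liver and that make, recycle or dispose of the nicotinamide ring of NAD, and they were picked by name from the 54532 genes with an Ensembl identifier in the count table. They were Tdo2, Kmo, Kynu, Haao, Qprt and Acmsd of the tryptophan (kynurenine) route, Nampt, Nmnat1 and Naprt of NAD synthesis from vitamin forms, and Nnmt of nicotinamide methylation. All 10 were found and all 10 passed the filter on low counts. The samples were 6 liver libraries from wild-type (WT) male C57BL/6J mice, 3 of the HFD group and 3 of the HFD+allantoin group. By the study's methods both groups started at 8 weeks of age, while the labels can be read as 4 weeks. Both were on a high-fat diet for 4 weeks and then for 4 weeks more, and in those last 4 weeks the HFD+allantoin mice also had allantoin, an oxidation product of uric acid, in their drinking water. The labels list 0.06 and 0.3 mg/mL and tie neither to a library. By the results and a figure legend of the study, the sequenced mice had the higher dose. No library came from mice without the high-fat diet. The labels do not state that the libraries of a group came from separate mice, so the p-values below measure the spread between these libraries.

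Tryptophan that is not built into protein is broken down mainly in hepatocytes. A dioxygenase opens the indole ring, and a chain of enzymes leads through kynurenine to an unstable semialdehyde. That semialdehyde either closes by itself to quinolinate, the starting point of NAD made from tryptophan, or is decarboxylated and burned. NAD is also rebuilt from nicotinamide and nicotinic acid, and the liver sends surplus nicotinamide out in methylated form.

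Counts per library ran from 11326372 to 14601457, and the members had between 48 (Acmsd) and 30308 (Tdo2) counts in a library. Levels are given as CPM, read counts per gene relative to the TMM-scaled size of the library, and changes as log2 fold changes of HFD+allantoin over HFD with adjusted p from edgeR's quasi-likelihood test over 12795 genes. A gene is called at an adjusted p under 0.05. By that rule 1446 genes, 11.3% of those tested, were higher and 1666, 13%, were lower in HFD+allantoin, 24.3% in all. Without TMM scaling, by library size only, 3162 genes were higher and 674 lower, and the median log2 fold change of all tested genes moved up by 0.41. The share of counts from the mitochondrial chromosome moved with the groups too. It ran from 17.9% to 36.5% in HFD and from 6.92% to 11.4% in HFD+allantoin. A fit with that chromosome dropped called 2 members higher and 3 lower, the same numbers as the main fit. Any other part of the share in the results below was not tested. The 9 hepatocyte markers read here summed to between 94281 and 95903 CPM in HFD and between 75703 and 103493 CPM in HFD+allantoin. The tissue label thus held in every library. Most of the sum was Alb, with means of 59483 CPM in HFD and 65248 CPM in HFD+allantoin. Of the 9, 1 was called higher (Cps1) and 2 lower (Apoa1 and Ttr), beside 11.3% and 13% of all genes tested. The 10 macrophage markers summed to 168 to 391 CPM in HFD and 421 to 459 CPM in HFD+allantoin, and the 10 stellate cell markers to 172 to 256 and 394 to 462 CPM. Of these markers, 3 of the macrophage and 7 of the stellate list were called higher, none was at 0 in any library, and their part in the results below was not tested. In whole tissue, fewer cells of a type and less RNA per cell cannot be told apart.

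Of the 10 members, 2 rose, 3 fell and 5 did not pass the test. Tdo2 and Nampt, the enzymes taken as rate-limiting for tryptophan breakdown and for nicotinamide salvage, were higher in HFD+allantoin. Haao, Acmsd and Naprt were lower, and Kmo, Kynu, Qprt, Nmnat1 and Nnmt were not called. The share called, 5 of 10, stands beside 24.3% of all genes tested. Groups were fully separate in 2 members that were higher and 4 that were lower, beside 22.4% and 21.9% of all tested genes, 44.3% in all. The median log2 fold change was -0.28 for the members and -0.03 for all genes. The members had no common direction.

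**Figure D1:**
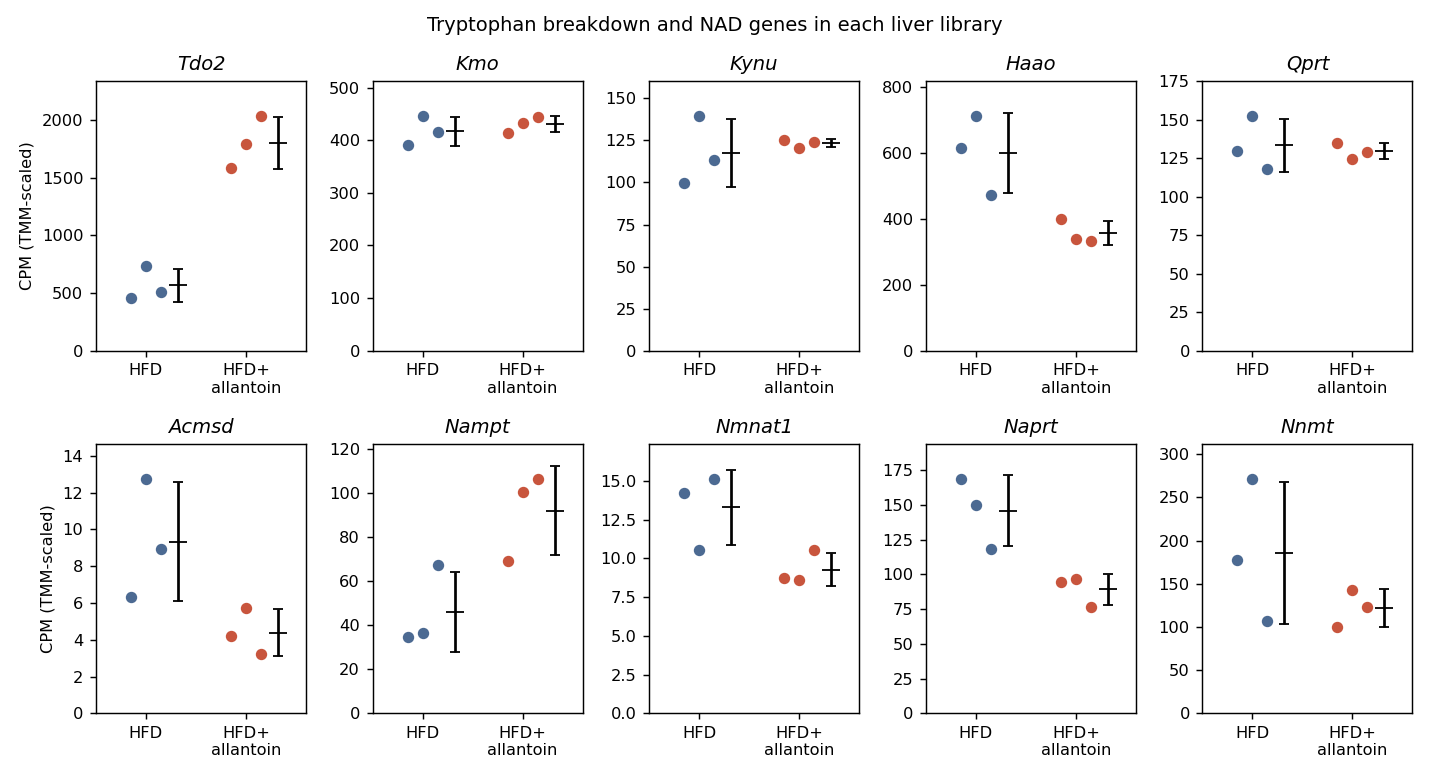
Expression of the 10 members in each library, in CPM on axes that start at 0, with 1 point per library, the group mean as a bar and the SD as whiskers (n = 3). The 3 HFD+allantoin values of Tdo2 sit between 1582 and 2035 CPM, all above the HFD values, while those of Kmo, Kynu, Qprt and Nnmt overlap with HFD.

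Sequence upstream of the RefSeq starts was read from RefSeq promoters of GRCm38.p6, which hold 7 of the 10 members. Kynu, Naprt and Nnmt were not in that table. The sequences are shown because Tdo2 and Nampt, which rose, and Haao, which fell, each held the hexamer AGGTCA, the core that many nuclear receptors recognise, on either strand within 250 bases before the start. Of 32851 promoters, 14.02% held it there. Kmo, Qprt and Nmnat1 did not. The 30 bases around each match are given 5′ to 3′ on the strand of the gene, with the match in capitals.
Tdo2 (chr3:81975717-81975746, minus strand): tgataccattccTGACCTagcaaacctgtg
Haao (chr17:83846831-83846860, minus strand): tgctcagctcttTGACCTctggtaacctaa
Nampt (chr12:32820172-32820201, plus strand): aggcaggcgcccAGGTCAcgcgctggggtg
Counted in bases from the start, the match began at -6 in Tdo2, -58 in Haao and -151 in Nampt, but GENCODE M21 has transcripts of all 3 genes that start further upstream. The stretch lay within the annotated span of the gene in Tdo2, Haao and Nampt. A match of this length is a description of the letters and does not show binding. The members and motifs were chosen with earlier results of these data known, so setting them beside the share is no test. The Nampt window is shown whole because of its base composition, with 27 CpG in 250 bases where the median promoter had 6.
Nampt (chr12:32820085-32820334, plus strand): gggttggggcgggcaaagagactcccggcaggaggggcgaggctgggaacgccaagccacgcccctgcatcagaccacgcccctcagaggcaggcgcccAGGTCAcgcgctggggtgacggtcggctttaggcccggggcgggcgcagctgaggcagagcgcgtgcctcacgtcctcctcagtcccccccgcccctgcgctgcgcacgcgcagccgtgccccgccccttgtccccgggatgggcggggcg
The Nampt window was 75.6% GC, where the median promoter was 52.4%. Nmnat1, with 23 and 24 CpG in its 2 listed promoters, resembled Nampt in composition, and Tdo2 (3 CpG) and Kmo (5 CpG) lay below the median. The E-box CACGTG, at which clock proteins bind and which 6.02% of promoters held, was found in none of the windows of Tdo2, Kmo, Haao, Qprt, Nampt and Nmnat1. The letters ACANNNTGT, the core of a steroid receptor palindrome, stood in 5.84% of promoters and among these members in that of Tdo2, at -178. The TATA box TATAAA and the CCAAT box, held by 12.4% and 33.8% of promoters, were also searched. Tdo2 held both and Nmnat1 held CCAAT. No conclusion on any factor is drawn from any of these motifs.

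Tdo2 (ENSMUSG00000028011, chromosome 3, 81957090 to 81976202 in GRCm38) encodes tryptophan dioxygenase, the enzyme that opens the indole ring. Its level was 461, 732 and 506 CPM in HFD replicates 1 to 3 and 1582, 1793 and 2035 CPM in HFD+allantoin replicates 4 to 6. Every HFD+allantoin value lay far above the highest HFD value. Tdo2 rose 3.18-fold, a log2 fold change of 1.67 ± 0.22 (standard error; edgeR adjusted p = 0.00348). By p-value it ranked 140 of 12795 tested genes. The call was kept under all 16 alternatives, with log2 fold changes from 1.54 to 2.07. Tat, tyrosine aminotransferase, is like Tdo2 a classic glucocorticoid-induced liver gene. It went from 671 ± 150 CPM to 485 ± 69.0 CPM (SD, n = 3) and was not called (log2 fold change -0.47, adjusted p = 0.130, edgeR). Its values did not overlap, with 570 CPM the lowest in HFD and 541 CPM the highest in HFD+allantoin. The part of glucocorticoids in the Tdo2 result was not tested.

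The enzymes between kynurenine and hydroxyanthranilate were not called. Kmo, the hydroxylase of kynurenine in the outer mitochondrial membrane (chromosome 1, 175620381 to 175662116), was at 391, 446 and 415 CPM in HFD and at 414, 433 and 443 CPM in HFD+allantoin. Kynu, the kynureninase (chromosome 2, 43555329 to 43682715), was at 99.7, 139 and 113 CPM and at 125, 121 and 124 CPM. Both sets of values overlapped. The log2 fold change of Kmo was 0.04, with a 95% interval of -0.30 to 0.39, and that of Kynu was 0.07, with an interval of -0.32 to 0.45. A change as large as that of Tdo2 lay outside both intervals, and smaller changes in either direction lay within them.

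Haao (ENSMUSG00000000673, chromosome 17, 83831156 to 83847963), the dioxygenase that opens the ring of hydroxyanthranilate, was lower. It was at 616, 712 and 473 CPM in HFD and at 399, 341 and 333 CPM in HFD+allantoin. The groups did not overlap, and Haao fell by 0.75 on the log2 scale (standard error 0.19, adjusted p = 0.0248, edgeR). The call was lost with library-size scaling (-0.32, adjusted p = 0.312) and in 4 of the 6 fits that left out a library, those without HFD replicate 2 (-0.60) or HFD+allantoin replicate 4 (-0.82), 5 (-0.71) or 6 (-0.70).

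The product of Haao is the branch point. Acmsd (ENSMUSG00000026348, chromosome 1, 127729413 to 127767978), the decarboxylase that leads away from NAD, was the least abundant member per length in both groups. Its level was 6.33, 12.7 and 8.95 CPM in HFD and 4.18, 5.74 and 3.24 CPM in HFD+allantoin, from 48 to 129 counts. The highest HFD+allantoin value lay just under the lowest HFD value. Acmsd fell by 1.09 on the log2 scale (standard error 0.33, adjusted p = 0.0441, edgeR). Its call was lost with library-size scaling (-0.69, adjusted p = 0.176) and without HFD replicate 2 (-0.80) or HFD+allantoin replicate 4 (-1.05), 5 (-1.33) or 6 (-0.91), and an antisense gene shares 94 exonic bases with it. Qprt (chromosome 7, 127107114 to 127122226), which turns quinolinate into a mononucleotide on the way to NAD, was at 130, 152 and 118 CPM in HFD and at 135, 125 and 129 CPM in HFD+allantoin. The groups overlapped, the log2 fold change was -0.04 with a 95% interval of -0.40 to 0.32, and library-size scaling turned its sign (0.38, adjusted p = 0.192). The ratio of Acmsd to Qprt counts within a library needs no scaling between libraries. Its log2 was -4.35, -3.58 and -3.72 in HFD and -5.00, -4.43 and -5.31 in HFD+allantoin. The mean was lower in HFD+allantoin by 1.03, and the nearest libraries of the groups, HFD replicate 1 and HFD+allantoin replicate 5, lay closer together than the SD within either group, 0.41 and 0.44.

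Nampt (ENSMUSG00000020572, chromosome 12, 32819545 to 32853349), which joins nicotinamide to a sugar phosphate and limits the rate of NAD salvage, was higher. It was at 34.5, 36.5 and 67.1 CPM in HFD and at 69.1, 101 and 106 CPM in HFD+allantoin. HFD replicate 3 came close to HFD+allantoin replicate 4, and no values overlapped. Nampt rose by 0.997 ± 0.28 on the log2 scale (standard error; edgeR adjusted p = 0.0343). Leaving out HFD replicate 3 gave 1.38 (adjusted p = 0.00361). It was not called without HFD replicate 1 (0.82) or 2 (0.86) or HFD+allantoin replicate 4 (1.17), 5 (0.94) or 6 (0.88), and it was called under the 10 other settings.

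Naprt (ENSMUSG00000022574, chromosome 15, 75890956 to 75894481), the matching enzyme for nicotinic acid, moved the other way. It was at 169, 150 and 118 CPM in HFD and at 94.7, 96.8 and 76.3 CPM in HFD+allantoin. The groups did not overlap, and Naprt fell by 0.71 on the log2 scale (standard error 0.19, adjusted p = 0.0269, edgeR). The call was lost with library-size scaling (-0.27, adjusted p = 0.345), with the trend in gene length and GC content removed (-0.43, adjusted p = 0.0668), and without HFD replicate 1 (-0.59) or 2 (-0.68) or HFD+allantoin replicate 4 (-0.74), 5 (-0.76) or 6 (-0.60). Naprt shares 277 exonic bases on the same strand with Eef1d, an elongation factor gene that was also lower (log2 fold change -0.57, adjusted p = 0.0345, edgeR), and how the counting split reads there is not given in the sources used here. Within a library, the log2 ratio of Nampt to Naprt counts was -2.29, -2.04 and -0.82 in HFD and -0.45, 0.05 and 0.48 in HFD+allantoin. This ratio is not corrected for the trend in length and GC content, which was 40.3% in Nampt and 59.4% in Naprt. With that trend removed, the log2 fold changes of both were smaller, 0.86 for Nampt and -0.43 for Naprt. Naprt counts exceeded Nampt counts in every HFD library and in 1 of the 3 HFD+allantoin libraries.

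Nmnat1 (chromosome 4, 149467572 to 149485202), the nuclear enzyme that completes the dinucleotide for all of these routes, was at 14.2, 10.57 and 15.1 CPM in HFD and at 8.72, 8.58 and 10.53 CPM in HFD+allantoin. The values did not overlap, but HFD replicate 2 and HFD+allantoin replicate 6 nearly met. Nmnat1 was not called (log2 fold change -0.52, 95% interval -1.004 to -0.04, adjusted p = 0.106, edgeR) under any setting tried. Its transcripts share stretches of 200 to 208 bases at 90.1% to 94.5% identity with 8 other transcripts, and how reads from such stretches were counted is not given in the sources used here.

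Nnmt (chromosome 9, 48591877 to 48605153), which methylates nicotinamide with S-adenosylmethionine in liver and fat, spread widely between HFD libraries. It was at 178, 271 and 108 CPM in HFD and at 99.7, 143 and 123 CPM in HFD+allantoin. The groups overlapped, and Nnmt was not called (log2 fold change -0.60, 95% interval -1.30 to 0.09, adjusted p = 0.180, edgeR). HFD replicate 2, with the highest Nnmt value, was also the library with the most adipocyte marker RNA. It held the highest HFD value of Tdo2, Kmo, Kynu, Haao, Qprt and Acmsd too. The part of adipocyte RNA in the values of any member was not tested. The 10 adipocyte markers summed to 751 CPM there and to between 77.1 and 248 CPM in the other 5 libraries, and Adipoq, the fat cell hormone adiponectin, had 520 counts in HFD replicate 2 and at most 1 in any other. Leaving out HFD replicate 2 brought Nnmt to -0.22 (adjusted p = 0.565), and leaving out HFD replicate 3, the lowest HFD value, brought it to -0.88 (adjusted p = 0.0203), a call. The log2 ratio of Nnmt to Nampt counts was 2.37, 2.89 and 0.68 in HFD and 0.53, 0.51 and 0.21 in HFD+allantoin, and Nnmt exceeded Nampt in every library.

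**Figure D2:**
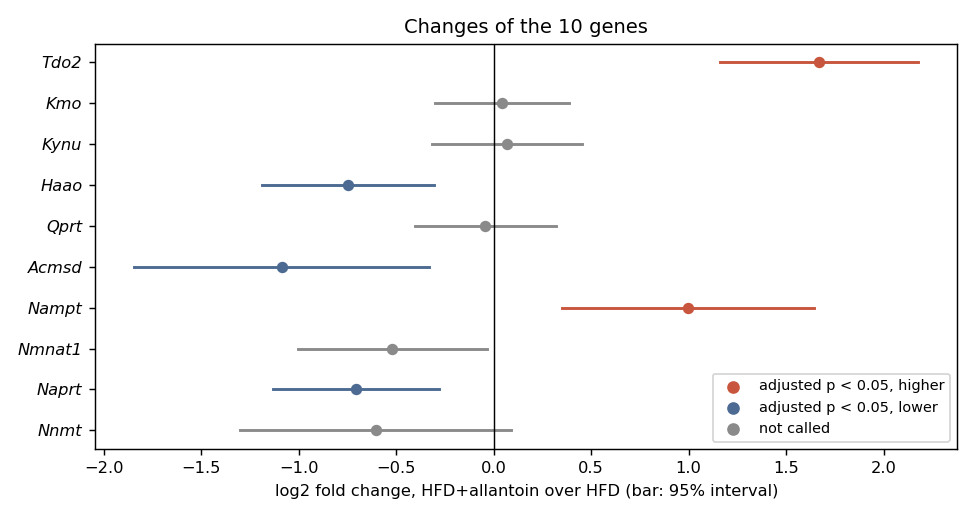
Log2 fold change of each member, HFD+allantoin over HFD, with its 95% interval from edgeR (points and bars; n = 3 a group). The intervals of Tdo2 and Nampt lie above 0, those of Haao, Acmsd, Nmnat1 and Naprt below 0, and those of Kmo, Kynu, Qprt and Nnmt include 0.

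**Figure D3:**
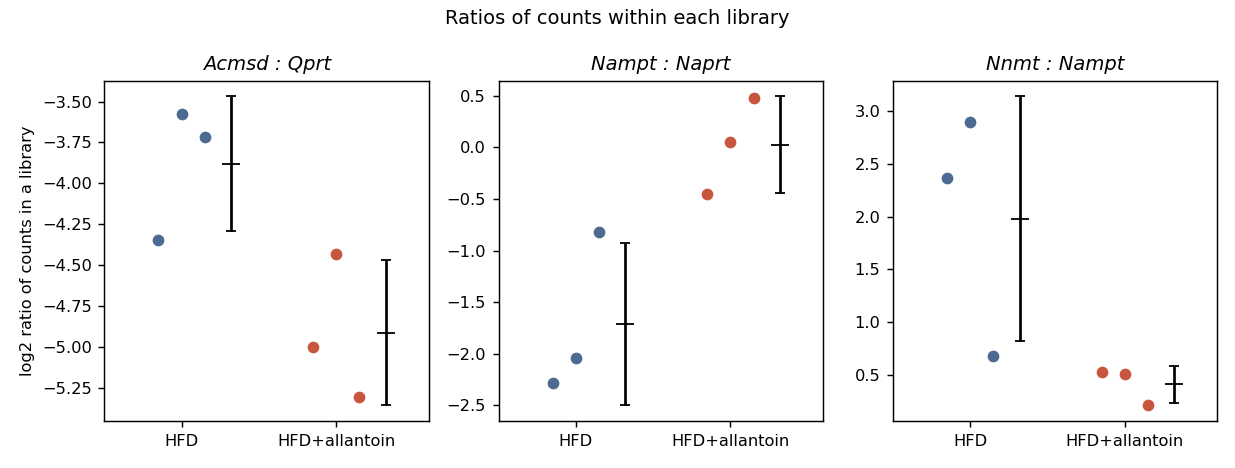
Log2 ratio of the raw counts of member pairs within each library, 1 point per library, with the group mean as a bar and the SD as whiskers (n = 3). The Acmsd to Qprt ratio is lower by 1.03 and the Nampt to Naprt ratio higher by 1.74 in HFD+allantoin, and the Nnmt to Nampt ratio has an SD of 1.16 in HFD and 0.18 in HFD+allantoin.

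Per kilobase of exon, with the length taken over the exons of all transcripts of a gene, Tdo2 led in both groups. The longest single transcript was shorter, unevenly so. It had 2778 of 6149 bases in Kynu, 3118 of 4681 in Haao, 1043 of 1576 in Nnmt and 3431 of 3881 in Tdo2. The order below holds for the length used and can change with another. In HFD it stood at 146 ± 37.5 CPM per kilobase, ahead of Haao (128 ± 25.8), Nnmt (118 ± 52.2) and Kmo (88.3 ± 5.80; SD, n = 3), and the values of these neighbours overlapped. Naprt (62.2 ± 10.9) and Qprt (50.5 ± 6.59) followed and overlapped with each other. Kynu (19.1 ± 3.28) and Nampt (9.11 ± 3.62) were each separate from their neighbours, and Nmnat1 (4.38 ± 0.794) and Acmsd (3.30 ± 1.14) overlapped at the foot. In HFD+allantoin, Tdo2 (465 ± 58.4) stood apart from Kmo (91.1 ± 3.19), which led a close trio with Nnmt (77.4 ± 13.7) and Haao (76.4 ± 7.67). By this length, Nampt (18.2 ± 3.96) reached the level of Kynu (20.0 ± 0.391), with overlapping values. The order of the members at the foot, Nmnat1 above Acmsd, was the same in both groups.

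The other genes of these routes, from 5 lists written for this comparison, numbered 58, and 52 of them were tested. Of these, 8 were higher and 8 lower, beside 11.3% and 13% of all genes, and their median log2 fold change was 0.10. The fits that left out a library gave 1 to 6 higher and 2 to 11 lower, with the fewest higher, 1, without HFD+allantoin replicate 4 or 5. By library size only, 14 were higher and 3 lower.

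In the kynurenine route, 2 of 8 tested genes rose and 1 fell, beside 11.3% and 13% of all genes tested. Ido2, a second indole dioxygenase, rose from 36.9 ± 9.19 to 61.2 ± 5.89 CPM (SD, n = 3; log2 fold change 0.73, adjusted p = 0.0311, edgeR), and Ido1, the inducible form, had 0 counts in all 6 libraries. Afmid, the formamidase that follows Tdo2, was at 19.2, 32.2 and 17.6 CPM in HFD and at 47.9, 61.9 and 28.3 CPM in HFD+allantoin, so that its groups overlapped although it was called (log2 fold change 1.002, adjusted p = 0.0498, edgeR). Kyat1, a transaminase that diverts kynurenine to kynurenic acid, was at 171, 123 and 105 CPM in HFD and at 56.2, 49.6 and 38.2 CPM in HFD+allantoin. It fell (log2 fold change -1.47, adjusted p = 0.00455, edgeR) and was called in all 16 alternatives. The related transaminases Kyat3 and Aadat were not called, with log2 fold changes of 0.42 and 0.12. The genes that follow Acmsd towards acetyl-CoA, Aldh8a1, Gcdh and Dhtkd1, had log2 fold changes of 0.15, 0.30 and 0.15 and were not called. The call of Ido2 was lost without HFD replicate 1 (0.58) or HFD+allantoin replicate 4 (0.70), 5 (0.69) or 6 (0.81), and library-size scaling gave 1.13. That of Afmid was lost without HFD replicate 1 (0.89) or 3 (0.84) or HFD+allantoin replicate 4 (0.98) or 5 (0.73). Afmid was not called either with upper-quartile scaling, limma-voom or a filter of CPM over 1 (adjusted p of 0.0562, 0.0537 and 0.0504).

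Among the other genes of NAD synthesis, 1 of 6 tested was called, beside 24.3% of all genes tested. Slc25a51, the carrier that brings NAD into mitochondria, fell from 61.8 ± 10.2 to 34.5 ± 4.87 CPM (SD, n = 3; log2 fold change -0.84, adjusted p = 0.0138, edgeR), and the call was lost with library-size scaling (-0.40, adjusted p = 0.155) and without HFD+allantoin replicate 4, 5 or 6 (-0.87, -0.91 and -0.72). Nadsyn1 is the synthetase that amidates the dinucleotide formed from the products of Qprt and Naprt. It was at 40.0, 26.3 and 17.9 CPM in HFD and at 15.1, 16.3 and 16.6 CPM in HFD+allantoin. Its values did not overlap, and it was not called (log2 fold change -0.81, adjusted p = 0.0574, edgeR) except without HFD replicate 3 (-1.05, adjusted p = 0.00749), with 2 of the 10 other settings calling it as well. The kinases that phosphorylate NAD, Nadk and Nadk2, had values of 0.43 and 0.34 that did not pass the test. Nmnat2 and Nmrk2 had at most 6 counts in a library and were not tested. Nnt, the transhydrogenase of which C57BL/6J mice carry a known deletion, had 2 to 17 counts and was not tested.

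Of 19 tested genes that consume NAD or nicotinamide, 2 rose and 5 fell, beside 11.3% and 13% of all genes tested. The sirtuins, deacylases that use NAD, split. Sirt3, the main mitochondrial deacetylase, rose from 30.5 ± 5.88 to 55.8 ± 8.90 CPM (SD, n = 3; log2 fold change 0.87, adjusted p = 0.0162, edgeR). Sirt2, Sirt4, Sirt6 and Sirt7 fell, with log2 fold changes of -0.79, -1.50, -1.38 and -0.67 (adjusted p of 0.00841, 0.0207, 0.0296 and 0.04997, edgeR). Sirt6 was at a low level, 2.78 ± 0.43 CPM in HFD and 1.06 ± 0.09 CPM in HFD+allantoin (SD, n = 3). Sirt4 was at 22.6, 9.58 and 8.69 CPM in HFD and at 5.06, 4.97 and 4.39 CPM in HFD+allantoin, and leaving out HFD replicate 1 brought the log2 fold change to -0.93. The call of Sirt3 was lost without HFD+allantoin replicate 4 (0.78) or 5 (0.85). That of Sirt2 was lost with library-size scaling (-0.36, adjusted p = 0.163) and without HFD+allantoin replicate 5 (-0.76, adjusted p = 0.0548). Sirt4 was not called without HFD+allantoin replicate 4 (-1.53), 5 (-1.52) or 6 (-1.43). Sirt6 was not called with library-size scaling (-0.95), with no filter (-1.34), or without HFD replicate 1 (-1.25) or HFD+allantoin replicate 4 (-1.44), 5 (-1.33) or 6 (-1.34). Sirt7 was not called with RLE, upper-quartile or library-size scaling (-0.66, -0.67 and -0.22) or with limma-voom (-0.63), and of the 6 fits without a library it was called in 1, without HFD replicate 3, with -0.44 without HFD replicate 1. Sirt1 and Sirt5 were not called (-0.53 and -0.46). Parp1, the polymerase of DNA repair, rose by a log2 fold change of 0.54 and Parp3 fell by 0.72 on the log2 scale (adjusted p of 0.0422 and 0.0226, edgeR). Parp1 was at 0.96 with library-size scaling, and its call was lost with upper-quartile scaling (0.54), with no filter (0.58) and without HFD replicate 1 (0.55) or 3 (0.47) or HFD+allantoin replicate 4 (0.55), 5 (0.62) or 6 (0.47). The call of Parp3 was lost with library-size scaling (-0.30) and without HFD+allantoin replicate 4 (-0.70), 5 (-0.67) or 6 (-0.77). The aldehyde oxidases Aox1 and Aox3, which oxidise the methylated nicotinamide that Nnmt makes, had log2 fold changes of -0.17 and 0.08 and were not called.

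On the side of tryptophan supply and other uses, 1 of 9 tested genes was called, beside 24.3% of all genes tested. Slc16a10, a carrier of aromatic amino acids, rose from 55.9 ± 12.8 to 97.6 ± 16.6 CPM (SD, n = 3; log2 fold change 0.80, adjusted p = 0.0268, edgeR), and it was not called without HFD replicate 1 (0.64) or 2 (0.81) or HFD+allantoin replicate 4 (0.92), 5 (0.67) or 6 (0.82). Slc7a5, Slc7a8 and Slc3a2, parts of the exchangers for large neutral amino acids, were not called, nor was Wars, which charges tRNA with tryptophan (-0.35). Ddc and Inmt, which lead tryptophan to amines, had values of 0.19 and 0.43 and were not called.

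Of 10 factors and companion genes known in liver for the control of these routes, 3 rose and 1 fell, beside 11.3% and 13% of all genes tested. Nr3c1, the glucocorticoid receptor, rose from a mean of 53.7 to a mean of 81.3 CPM (log2 fold change 0.60 ± 0.16, standard error, adjusted p = 0.0258, edgeR), a call that was lost with the trend in gene length and GC content removed (0.39, adjusted p = 0.0737) and without HFD replicate 2 (0.53) or HFD+allantoin replicate 4 (0.64), 5 (0.54) or 6 (0.63). With library-size scaling Nr3c1 was at 1.012. Ppara, the fatty acid receptor whose agonists are known to lower Acmsd, was at 28.4 ± 10.1 CPM in HFD and 115 ± 27.6 CPM in HFD+allantoin (SD, n = 3; log2 fold change 2.02, adjusted p = 0.00389, edgeR). The study proposes, from binding and activity assays, that allantoin is an antagonist of this receptor. Its mRNA does not measure its activity, and its part in the Acmsd result was not tested. Cebpb, a factor of the acute response, fell from 257 ± 14.9 to 105 ± 16.2 CPM (SD, n = 3; log2 fold change -1.30, adjusted p = 0.00340, edgeR). The calls of Ppara and Cebpb were kept in all 16 alternatives, although Cebpb was at -0.71 (adjusted p = 0.0457) with the trend in gene length and GC content removed. Hnf4a and Cebpa were not called (-0.11 and 0.22).

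Nampt is a known output of the clock. Of 14 tested clock genes, 6 were higher, 1 was lower and 7 were not called, beside 24.3% of all genes called. By smallest p the leading genes were Usp2, Ciart, Cry2, Per1 and Hlf, with log2 fold changes of 2.67, 1.94, 0.98, -1.23 and 0.77. Clock and Arntl, which act on Nampt, were at 41.4 ± 1.53 and 5.60 ± 3.28 CPM in HFD and at 34.3 ± 1.75 and 2.48 ± 0.208 CPM in HFD+allantoin (SD, n = 3), and neither was called. The hours of collection are not given in the sources used here, and the part of the time of day in the Nampt result was not tested.

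**Figure D4:**
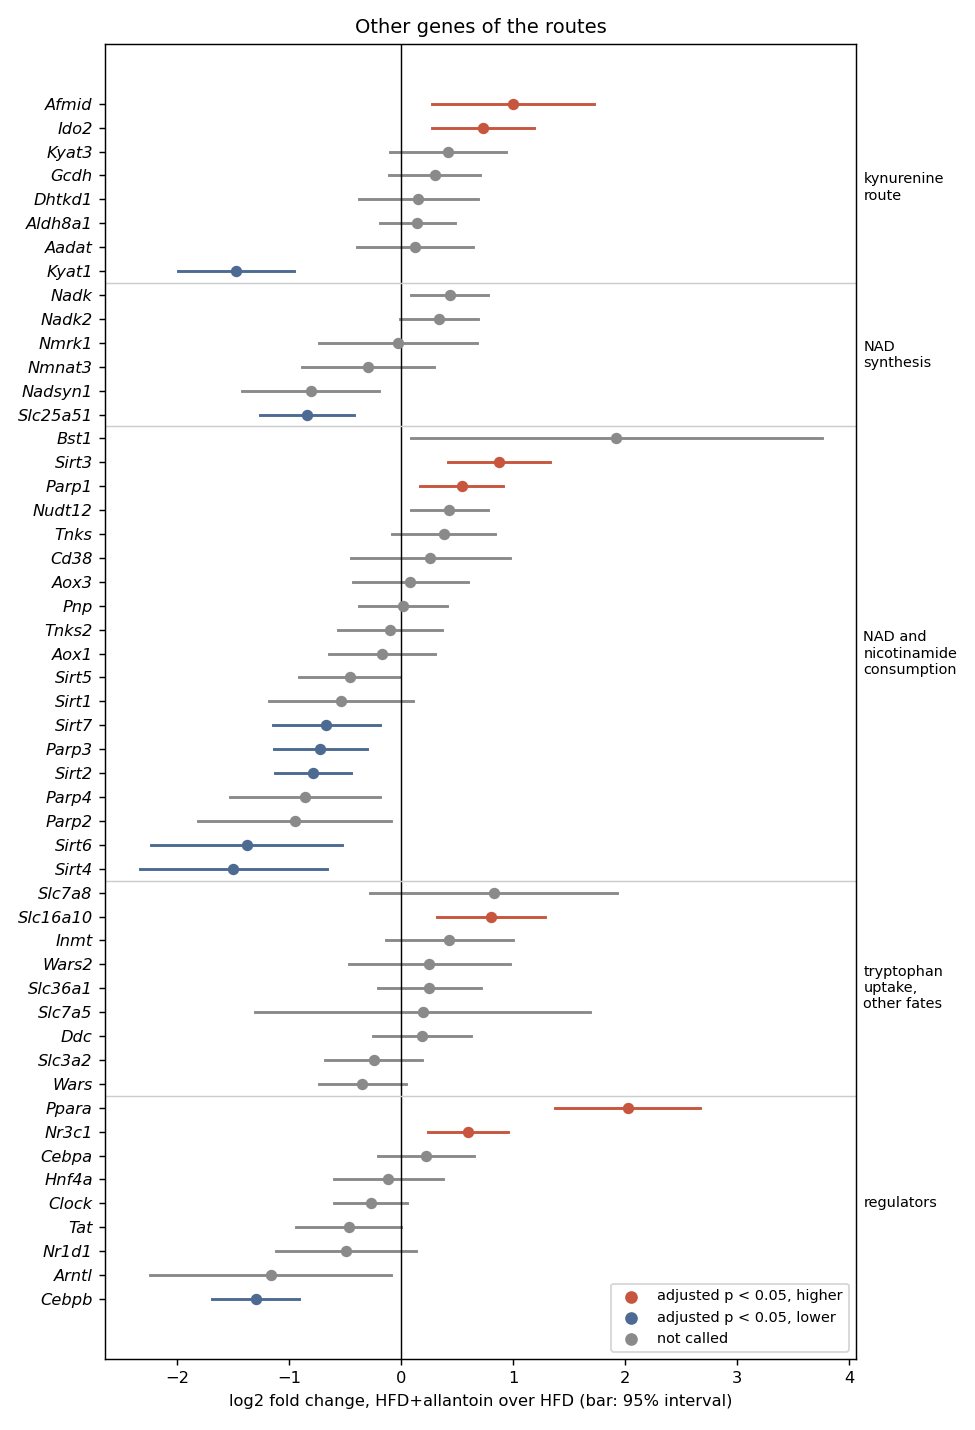
Log2 fold change, HFD+allantoin over HFD, of tested genes of the 5 other lists, with 95% intervals from edgeR (n = 3 a group), grouped by route. Kyat1, Sirt4, Sirt6 and Cebpb are the called genes below -1, and Ppara and Afmid those at or above 1.

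**Figure D5:**
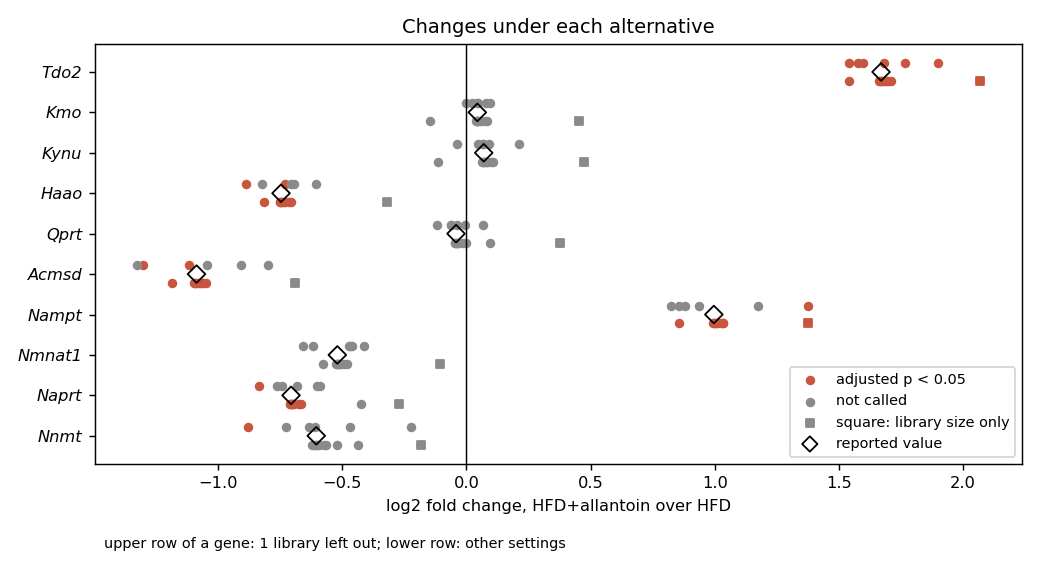
Log2 fold change of each member as reported (diamonds) and under 16 alternatives, with the 6 fits that leave out a library in the upper row of a gene and the 10 other settings in the lower row. Tdo2 keeps its call throughout, between 1.54 and 2.07, and library-size scaling, drawn as squares, lies to the right for every member.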

How the data were processed

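RNA from liver was sequenced on an Illumina platform, and the authors deposited whole-number read counts per gene, not normalized, made from filtered reads. Per the labels the build was GRCm38 (mm10), while the aligner and the counting tool are not given in the sources used here. The table had 54961 rows. Left out were 429 rows with no Ensembl identifier, which held 0.197% to 0.306% of the counts per library. Symbols, positions and exon lengths came from GENCODE M21 and promoters from RefSeq.

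Groups were taken from the labels. Counts were fitted with edgeR 4.0.16 (R 4.3.3), using TMM, filterByExpr and a quasi-likelihood test with the group as the only term, two-sided, with Benjamini-Hochberg adjustment over 12795 genes. Standard errors and 95% intervals came from the F statistic. Ratios used a prior count of 0.5. The procedure was tested on simulated data. An exact permutation test of 3 against 3 libraries cannot give a p below 0.1.

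Tried in turn were scaling by upper quartile, RLE or library size, DESeq2 1.42.0, limma-voom (limma 3.58.1), testing unfiltered genes, a minimum of 10 counts throughout, CPM above 1 in 3 libraries, dropping the mitochondrial chromosome, removing each library's trend with GC content and length (5-df splines), leaving out each library, and an adjusted p under 0.01. The members, the lists and the motifs were chosen with earlier results of these data known. All members were named, together with called genes of the 5 other lists, and clock and marker genes by smallest p or highest level. The promoter of 1 member and 1 of the listed regulators are not reported here.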

Additional observations from a re-analysis of the deposited data

How the results depend on the processing

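Tdo2 was the member whose call held in every one of the 16 alternatives. Among the 3 lower members, library-size scaling ended all calls, giving 0 members lower, and an adjusted p under 0.01 left 1 member higher and 0 lower. Leaving out a library gave 1 to 2 members higher and 0 to 4 lower. For the other pathway genes, library-size scaling gave 14 higher and 3 lower, an adjusted p under 0.01 gave 1 and 3, and leaving out a library gave 1 to 6 and 2 to 11. Over all genes, library-size scaling gave 3162 higher and 674 lower, an adjusted p under 0.01 gave 443 and 573, and leaving out a library gave 460 to 1773 and 564 to 2008. Over all genes, the most calls came without HFD replicate 3 and the fewest without HFD+allantoin replicate 5. The cause of these changes was not tested. Signs turned only for members near 0. Qprt was at 0.38 with library-size scaling and at 0.095 with the trend in length and GC content removed, where Kmo was at -0.15 and Kynu at -0.11. Over the fits without a library, Kmo ran from -0.0026 to 0.095, Kynu from -0.037 to 0.21 and Qprt from -0.12 to 0.065. No paired analysis was possible because the groups share no replicate number. With 48 to 129 counts per library, Acmsd is the member most limited by depth.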
